A study of Mus musculus with 12 samples.

Results

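The 9 regional patterning genes Mab21l1, Mab21l2, Irx1, Irx2, Irx3, Irx4, Irx5, Irx6 and Gbx2 were followed across 12 rhabdoid tumors by the place in the head from which each tumor was dissected. They are 9 of the 24060 gene rows of the RNA-seq tables. The set was chosen on these same data, because Mab21l2 was highest in the tumors of the cheek, and the Irx genes and Gbx2 were added as genes of positional identity. The level of Mab21l2 in the cheek tumors is therefore a description and received no test.

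All 12 tumors arose in P0-CreC;Smarcb1 flox/flox mice, in which Cre under the P0 promoter deletes Smarcb1, a core subunit of the SWI/SNF chromatin remodeling complex, in migrating neural crest cells and the Schwann cell lineage. Every tumor shares this genotype, no tumor was treated, and the ages of the mice are not given in the sources used here. The labels place 4 tumors in the retro-orbital region, 3 in the cheek, 3 in the meninges, 1 on the vestibular nerve and 1 on the trigeminal nerve. Since the promoter is active in a wide set of cranial neural crest derivatives, the location names the place of dissection and not a cell of origin, and no normal tissue was analysed here. The labels name no batch, and no replicate number links the tumors. In 3 instances 2 tumors share the leading number of their titles (cheek tumor 1 with meninges tumor 1, cheek tumor 2 with cheek tumor 3, and retro-orbital tumor 3 with the trigeminal nerve tumor), and whether these pairs come from 1 mouse is not stated. P-values measure the spread between tumors, which may in part be spread within a mouse.

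The values are RPKM, fragments per kilobase of transcript and scaled to the mapped reads of the tumor. The total of fragments behind a tumor, recovered from the steps between low values, ran from 13206168 in cheek tumor 3 to 57128422 in retro-orbital tumor 3. Smarcb1, read over the whole gene and without a control tumor, lay between 1.70 and 6.31 RPKM. Cheek tumors 2 and 3 were the most alike of the pairs within a location, with a chi-square of 33.8 per degree of freedom against 141 to 453 in the other pairs. Even 33.8 is far beyond counting noise. The value cannot tell independent tumors from 2 tumors of 1 mouse or 2 parts of 1 tumor. Each was kept as a separate sample because the labels list them separately, so the cheek may hold fewer independent tumors than samples. These 2 tumors also stood apart by Nefl, a neurofilament of axons, at 412 and 335 RPKM against 1.49 to 12.5 in the other tumors.

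Mab21l1 and Mab21l2 encode closely related proteins with a nucleotidyltransferase-like fold, named after a nematode gene that sets the identity of sensory rays in the male tail. In the vertebrate embryo they are known from the eye, the midbrain and the mesenchyme of the facial prominences. The Iroquois (Irx) genes encode homeodomain transcription factors that divide neural plate, heart and limb into territories, and they lie in 2 clusters of 3 genes. Gbx2, a homeodomain repressor, sets the anterior edge of the hindbrain against Otx2 and also marks early neural crest.

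Both Mab21l genes consist of 1 exon within a far larger gene on the opposite strand. In the GENCODE M21 annotation of GRCm38, the assembly known as mm10, Mab21l1 lies at chr3:55782510-55785001 on the plus strand inside Nbea, and Mab21l2 at chr3:86545581-86548629 on the minus strand inside Lrba. Their exons share 981 bases with exons of all annotated Nbea transcripts and 1097 bases with those of Lrba, but 0 bases with the 1 Nbea and 3 Lrba transcripts that carry a RefSeq identifier, and the fragments were counted on RefSeq genes. The coding sequences are both 1077 bases long and identical at 80.6% of positions. The opening 150 coding bases are shown because the levels of the paralogs are compared throughout. Capitals mark the 30 positions at which they differ, most of them at codon ends.
Mab21l1 (chr3:55782994-55783143, plus strand): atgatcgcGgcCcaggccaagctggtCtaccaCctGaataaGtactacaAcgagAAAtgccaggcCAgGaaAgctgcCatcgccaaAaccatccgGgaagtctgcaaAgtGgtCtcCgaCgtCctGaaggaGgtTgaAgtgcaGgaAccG
Mab21l2 (chr3:86547542-86547691, minus strand): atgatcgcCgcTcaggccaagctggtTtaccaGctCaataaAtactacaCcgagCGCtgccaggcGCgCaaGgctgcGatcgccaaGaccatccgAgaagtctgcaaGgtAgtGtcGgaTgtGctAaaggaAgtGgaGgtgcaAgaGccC
The longest stretch without a difference is 26 bases, cccaccgagttcgaggtggtactcta, and no 50-base word occurs in both coding sequences. A read of 50 bases or more from one coding sequence therefore has no exact match in the other, and the values of the paralogs can be set side by side.

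Mab21l2 was present at 49.2, 38.3 and 36.3 RPKM in the cheek tumors. It lay at 0.929, 1.02, 2.54 and 0.772 RPKM in the retro-orbital tumors and at 1.60, 1.49 and 5.63 RPKM in the meninges tumors. The vestibular and trigeminal nerve tumors held 8.75 and 8.53 RPKM. The ranges of the cheek tumors and of all others did not touch, the lowest cheek tumor being 4.15-fold above the highest of the other 9. The cheek mean was 41.2 ± 6.95 RPKM (SD, n = 3) and the mean of the others 3.47 ± 3.28 RPKM (SD, n = 9), a ratio of 11.9. These are the values on which the genes were chosen, and no p-value is attached to them. Within the other tumors both nerve tumors were above every meninges and retro-orbital tumor, each location being 1 tumor, while the ranges of the meninges and retro-orbital tumors overlapped. In bulk tissue, fewer cells that express a gene and less of its RNA per cell cannot be told apart, here or in any value that follows.

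**Figure D1:**
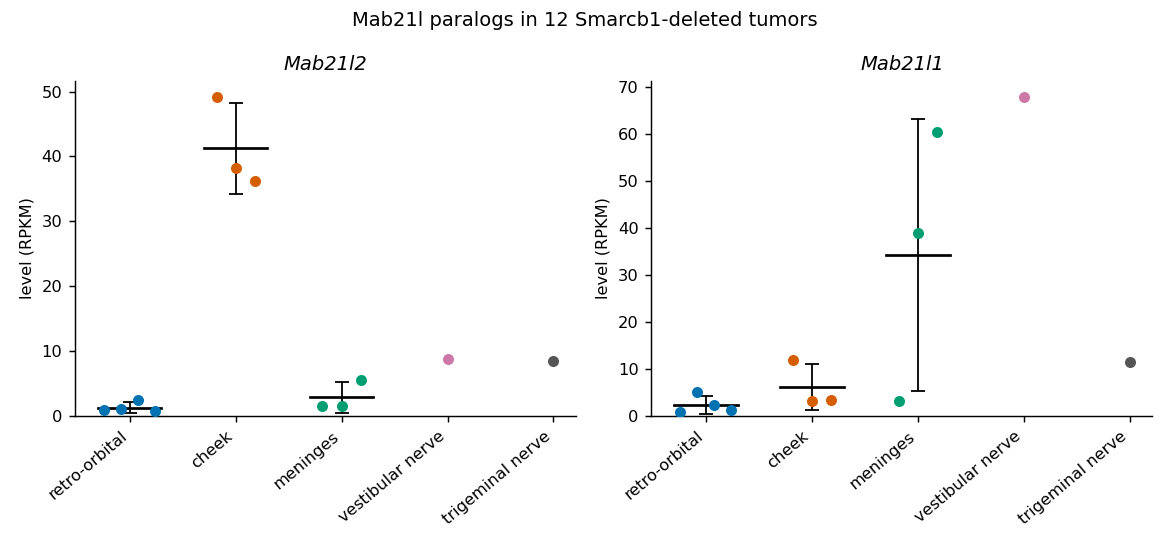
Levels of Mab21l2 (left) and Mab21l1 (right) in RPKM, linear axes from 0, by location. Points are tumors, bars the mean and whiskers 1 SD where a location holds more than 1 tumor. Mab21l2 lies at 36.3 to 49.2 RPKM in the 3 cheek tumors and at most at 8.75 RPKM elsewhere, while Mab21l1 is highest in the vestibular nerve tumor and in 2 of the 3 meninges tumors.

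Mab21l1 had another order of locations. The vestibular nerve tumor was highest at 67.9 RPKM. Among the meninges tumors, the values were 39.0 RPKM in tumor 2, 60.5 RPKM in tumor 3 and only 3.19 RPKM in tumor 1. The trigeminal nerve tumor reached 11.6 RPKM. Cheek tumor 1 held 11.8 RPKM, and cheek tumors 2 and 3 held 3.25 and 3.35 RPKM. All 4 retro-orbital tumors were low, at 0.877, 5.13, 2.40 and 1.26 RPKM. The means were 34.2 ± 29.0 RPKM (SD, n = 3) in the meninges, 6.15 ± 4.93 RPKM (SD, n = 3) in the cheek and 2.42 ± 1.92 RPKM (SD, n = 4) behind the eye, and the ranges of all 3 locations overlapped.

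The balance of the 2 paralogs thus differed from tumor to tumor. Mab21l2 was 4.16, 11.8 and 10.8 times Mab21l1 in the cheek tumors. It was 0.501, 0.0382 and 0.0931 times Mab21l1 in the meninges tumors, 0.129 times in the vestibular nerve tumor and 0.735 times in the trigeminal nerve tumor. Retro-orbital tumors 1 and 3 had nearly equal levels, with ratios of 1.06 and 1.06, and tumors 2 and 4 ratios of 0.199 and 0.614. Mab21l2 exceeded Mab21l1 in 5 of the 12 tumors. Mab21l3, a more distant relative, reached 1 RPKM in 1 tumor, at 3.90 RPKM in retro-orbital tumor 3. Mab21l4 was not analysed here.

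Markers of surrounding tissue differed within the cheek. The summed level of 7 skeletal muscle genes was 56.1, 558 and 293 RPKM in cheek tumors 1 to 3, against 9.93 to 207 RPKM in the retro-orbital tumors, 6.25 to 341 RPKM in the meninges tumors, and 226 and 94.4 RPKM in the vestibular and trigeminal nerve tumors. Acta1, the actin of skeletal muscle, stood at 1.46 RPKM in cheek tumor 1, in which Mab21l2 was highest, and at 196 and 106 RPKM in the other two. The 5 neuron genes summed to 17.5, 454 and 377 RPKM in the cheek tumors, against 21.9 to 178 RPKM elsewhere. Nefl made most of the sum in cheek tumors 2 and 3 but only 4.35 RPKM in cheek tumor 1. The other neuron genes did not follow Nefl. Of the 5 genes, 3 reached 1 RPKM in cheek tumors 2 and 3, 4 in cheek tumor 1 and 3 to 5 elsewhere. Crx, a photoreceptor factor, was under 1 RPKM in all 12 tumors, the retro-orbital tumors included. Epithelial genes reached 592 RPKM in sum in the vestibular nerve tumor, of which Epcam made 551 RPKM. The 3 meningeal fibroblast genes did not set the meninges tumors apart. Their sum was 32.9 to 44.8 RPKM there, 4.44 to 61.7 RPKM in the retro-orbital tumors, 4.44 to 7.61 RPKM in the cheek tumors, 90.3 RPKM in the vestibular nerve tumor and 17.8 RPKM in the trigeminal nerve tumor. Ptgds was at 31.3, 27.9 and 29.0 RPKM in the meninges tumors and at 51.5 RPKM in retro-orbital tumor 4. Aldh1a2, an enzyme of retinoic acid synthesis, was highest in the vestibular nerve tumor, at 72.2 RPKM, and Slc6a13 stayed under 1 RPKM in all 12 tumors. The part of these tissues in the levels of the members was not tested.

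The question whether the members separated tumors of the meninges from those of other locations was asked without the cheek tumors. Limma was fitted across all genes at 1 RPKM or more in at least 3 fitted tumors, with the tests two-sided and Benjamini-Hochberg adjustment at 0.05. Between the 3 meninges and the 4 retro-orbital tumors, 14245 genes were tested and 0 were called, a background of 0%. At an unadjusted p under 0.05 there were 1129 genes. Of the 6 members tested, 0 were called. Their median difference was 0.25 on the log2(RPKM + 1) scale, beside 0.13 over all genes tested. Mab21l1 was 2.83 ± 0.92 (SE) higher in the meninges tumors on that scale, with an unadjusted p of 0.0164 and an adjusted p of 0.616 by limma. The exact permutation test gave it a p of 0.0571, where 1 of 35 labellings, or 0.0286, is the smallest p possible. Meninges tumor 1 lay within the retro-orbital range.

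The 6 tumors of the retro-orbital region, the vestibular nerve and the trigeminal nerve are called cranial nerve tumors other than cheek here. The label retro-orbital itself names no nerve. Between the 3 meninges tumors and these 6 tumors, 14676 genes were tested and 2 were called, a background of 0.0136%. The 2 were Hoxd10 and Hoxd11, Hox genes of trunk and limb, named here after their values were seen, at 3.09 ± 0.32 and 2.49 ± 0.26 (SE) higher in the meninges tumors. Both calls were lost with a pseudocount of 0.1, with a minimum of 5 RPKM, and on leaving out any 1 of the 9 tumors other than retro-orbital tumor 3. Of the 6 members tested, 0 were called, and the lowest adjusted p of a member by limma was 0.946. At an unadjusted p under 0.05 there were 736 genes and 0 members. Mab21l1 was 1.74 ± 1.20 (SE) higher in the meninges tumors, with an exact permutation p of 0.262, and the vestibular nerve tumor was above all 3 of them. Mab21l2 differed by -0.05 ± 0.67 (SE) on the log2 scale. The 2 comparisons share the meninges and retro-orbital tumors. Irx1, Irx4 and Irx6 did not reach the minimum level and were not tested in these fits.

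**Figure D2:**
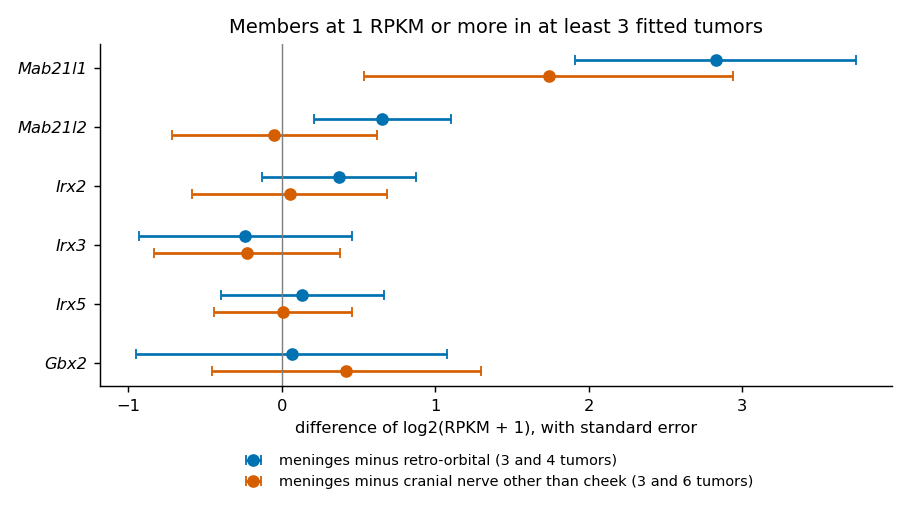
Differences of log2(RPKM + 1) between meninges tumors and the retro-orbital tumors (blue) or all cranial nerve tumors other than cheek (orange) for the 6 members tested. Points are differences of group means, and whiskers 1 standard error. Mab21l1 has the largest difference of these 6 in both comparisons, at 2.83 and 1.74, and the other 5 lie between -0.24 and 0.66.

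The 6 Irx genes lie in 2 clusters of 1312 kb and 882 kb. Irx1, Irx2 and Irx4 are on chromosome 13, at chr13:71957921-71963723 on the minus strand, chr13:72628820-72634198 on the plus strand and chr13:73260479-73269608 on the plus strand. Irx3, Irx5 and Irx6 are on chromosome 8, at chr8:91798525-91802067 on the minus strand, chr8:92357625-92376286 on the plus strand and chr8:92674288-92680956 on the plus strand. The most conserved 90 bases of their coding sequences encode the end of the homeodomain, including its recognition helix, and are shown because reads from this stretch bear on how well the genes can be told apart. Capitals mark the bases that differ from Irx3.
Irx3 (chr8:91800502-91800591, minus strand): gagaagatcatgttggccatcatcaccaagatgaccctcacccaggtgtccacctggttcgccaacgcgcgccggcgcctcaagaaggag
Irx5 (chr8:92359720-92359809, plus strand): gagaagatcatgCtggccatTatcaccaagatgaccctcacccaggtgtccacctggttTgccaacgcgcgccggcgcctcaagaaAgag
Irx6 (chr8:92677329-92677418, plus strand): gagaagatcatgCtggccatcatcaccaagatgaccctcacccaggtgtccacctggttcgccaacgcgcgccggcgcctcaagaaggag
Irx1 (chr13:71959998-71960087, minus strand): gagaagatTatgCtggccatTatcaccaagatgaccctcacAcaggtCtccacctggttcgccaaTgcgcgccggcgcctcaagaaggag
Irx2 (chr13:72630757-72630846, plus strand): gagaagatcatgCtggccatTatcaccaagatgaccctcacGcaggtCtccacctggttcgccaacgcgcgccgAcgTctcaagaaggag
Irx4 (chr13:73267616-73267705, plus strand): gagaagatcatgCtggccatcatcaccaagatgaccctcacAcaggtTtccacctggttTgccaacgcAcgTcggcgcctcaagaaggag
Irx6 differs from Irx3 at 1 base of this window, Irx5 at 4, and Irx1, Irx2 and Irx4 at 6 each. Over the whole coding sequences, 3 of the 15 pairs share a word of 50 bases, the longest shared run being 88 bases in Irx3 and Irx6. Reads that fall wholly within such a run cannot be assigned to 1 gene and would be lost among uniquely mapped reads.

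Irx3 and Irx5 were the only Irx genes at 1 RPKM or more in 12 of 12 tumors. Together they made from 54.0% of the summed Irx level, in the trigeminal nerve tumor, to 98.9%, in retro-orbital tumor 1, with a median of 85.7%. Part of Irx3 is overlapped by the antisense gene Irx3os, which was not analysed here. Irx3 lay at 13.97, 11.4, 5.14 and 1.31 RPKM in the retro-orbital tumors. The cheek tumors held 4.94, 1.28 and 1.89 RPKM, and the meninges tumors 2.999, 10.4 and 3.90 RPKM. The vestibular nerve tumor was at 9.82 RPKM and the trigeminal nerve tumor at 3.56 RPKM. The range of Irx3 in the retro-orbital tumors covered all but cheek tumor 2, so the locations did not separate.

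Irx5 varied least of the 7 members detected in every tumor, with a highest value 6.04-fold above the lowest. It lay at 7.57, 5.97, 3.09 and 3.30 RPKM in the retro-orbital tumors, at 2.50, 4.52 and 3.59 RPKM in the cheek tumors and at 5.04, 12.3 and 2.03 RPKM in the meninges tumors. The vestibular and trigeminal nerve tumors held 7.06 and 5.78 RPKM. Neither Irx3 nor Irx5 differed between meninges and retro-orbital tumors beyond the spread: the differences were -0.24 ± 0.70 (SE) and 0.13 ± 0.53 (SE) on the log2(RPKM + 1) scale, with adjusted p-values of 0.937 and 0.957 by limma. The ratio of Irx3 to Irx5 ran from 0.284 to 1.98, with Irx3 the higher gene in 6 tumors.

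Irx6, the remaining gene of this cluster, exceeded 1 RPKM in meninges tumor 2 alone. Meninges tumor 2 held 1.55 RPKM from 97 fragments and meninges tumor 3 held 0.260 RPKM from 11 fragments. Meninges tumor 1 held 3 fragments. Behind the eye, retro-orbital tumor 4 held 15 fragments, or 0.153 RPKM, and the other three 0, 0 and 1 fragment. In all cheek and nerve tumors Irx6 had at most 8 fragments. Where 0 fragments were counted, up to 3 fragments are allowed by chance, which is 0.0465 RPKM in retro-orbital tumor 1, and this limit covers counting error only. With no minimum level, the limma adjusted p was 0.654 against the retro-orbital tumors and 0.783 against all cranial nerve tumors other than cheek. The exact permutation p of Irx6, not adjusted, was 0.0571 and 0.0357 in these 2 comparisons.

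In the other cluster Irx2 was the only gene above 1 RPKM in 3 or more tumors. The trigeminal nerve tumor had the highest value, 7.71 RPKM. Next were retro-orbital tumor 3 at 3.03 RPKM, meninges tumor 2 at 2.81 RPKM, cheek tumor 1 at 1.20 RPKM and meninges tumor 3 at 1.14 RPKM. The remaining 7 tumors were at 0.0498 to 0.664 RPKM. The trigeminal nerve tumor and retro-orbital tumor 3 are a pair with the same leading title number. Irx1, the neighbor of Irx2, exceeded 1 RPKM in retro-orbital tumor 3 alone, at 1.66 RPKM from 196 fragments, and was at 0.0446 to 0.627 RPKM in the others.

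Irx4, known as the gene of the heart ventricle, was listed at 0 in 5 tumors. It had 13 fragments in cheek tumor 3 and at most 4 in any other. The meninges tumors held 4, 2 and 2 fragments and the retro-orbital tumors 0 each. These groups did not overlap, and the exact permutation p was 0.0286 against the retro-orbital tumors and 0.0119 against all cranial nerve tumors other than cheek, each the smallest the design allows. Neither p was adjusted. The share of all genes that separate these groups as fully was not computed, so no result about Irx4 is read from this. The counts are near the limit of 3 fragments that a value of 0 allows, the limma adjusted p with no minimum level was 0.636 and 0.735, and no fold is given. In every tumor the summed level of Irx3, Irx5 and Irx6 exceeded that of Irx1, Irx2 and Irx4. The ratio of the sums was lowest in the trigeminal nerve tumor, at 1.18, highest in retro-orbital tumor 1, at 91.1, and had a median of 7.77.

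Gbx2, at chr1:89927956-89931179 on the minus strand, was on in 3 tumors and close to off in 9. Meninges tumor 1 held 12.2 RPKM from 711 fragments. Retro-orbital tumors 1 and 4 held 5.77 and 3.88 RPKM. The other 9 tumors lay between 0.0906 and 0.432 RPKM, with 3 to 27 fragments. The cheek tumors were at 0.249, 0.101 and 0.107 RPKM, all under the lowest of the 3 high tumors. Location did not order the levels. Within both the meninges and the retro-orbital tumors, high and low values stood side by side. The difference between meninges and retro-orbital tumors was 0.06 ± 1.01 (SE) on the log2(RPKM + 1) scale, with an adjusted p of 0.990 by limma. Gbx1, its only paralog, stayed under 1 RPKM in all 12 tumors. Otx2, the forebrain and midbrain factor opposed to Gbx2 in the neural tube, was at 13.0 RPKM in retro-orbital tumor 3, where Gbx2 was lowest at 0.0906 RPKM, and at most at 0.448 RPKM in the other tumors. Since Otx2 did not reach 1 RPKM in 3 tumors, no correlation was computed.

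**Figure D3:**
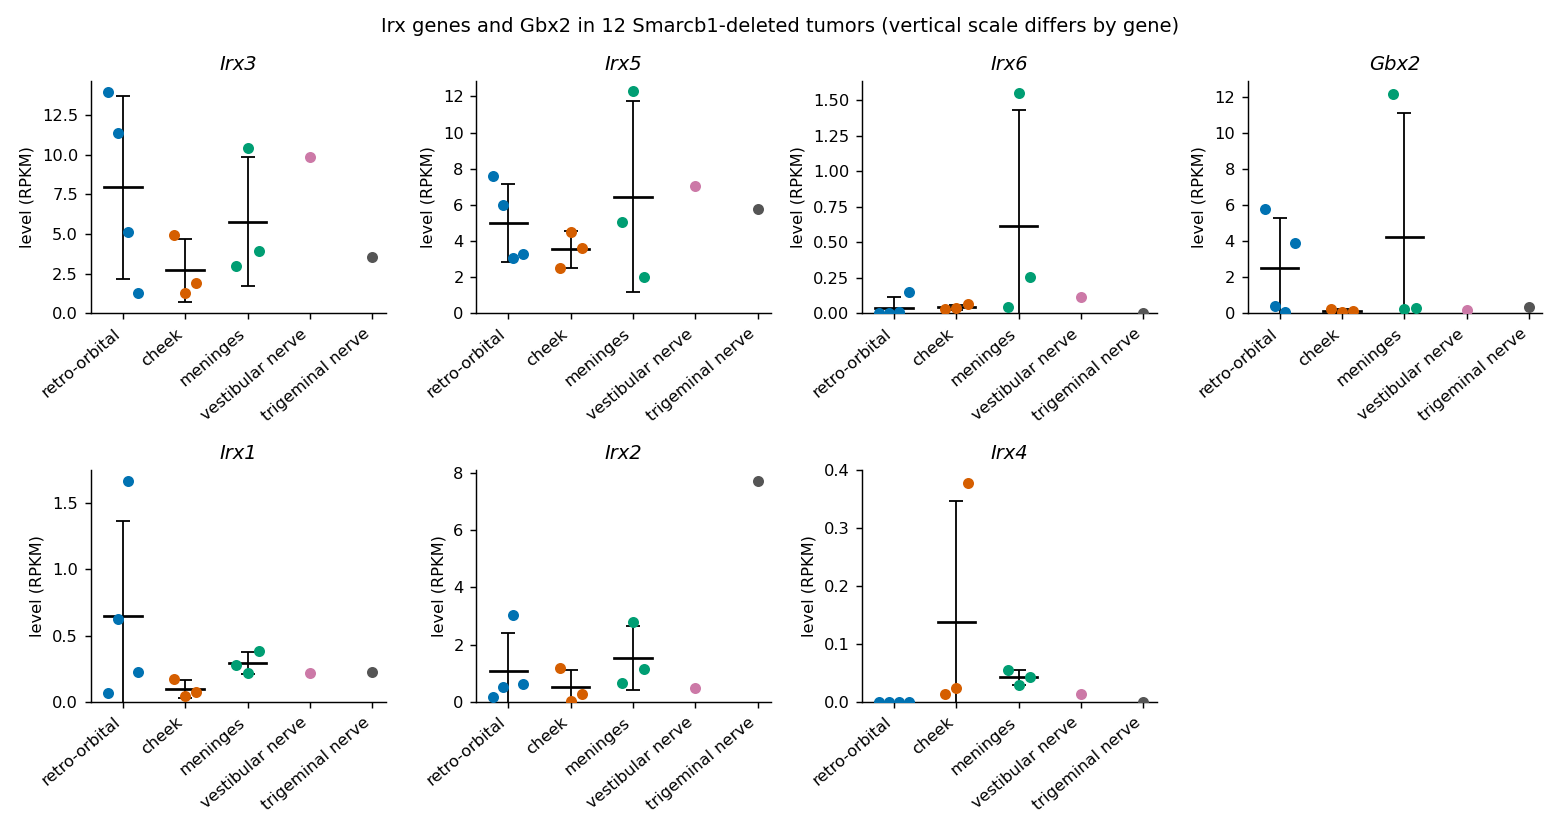
Levels of the Irx genes and Gbx2 in RPKM by location, linear axes from 0 that differ between genes. Points are tumors, bars the mean and whiskers 1 SD, not drawn below 0. Irx3 and Irx5 are above 1 RPKM in all 12 tumors, while Gbx2 is above 1 RPKM in 3 tumors and Irx1 and Irx6 in 1 each.

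Each member was then set beside the genes next to it on the chromosome. Of 14 pairs of genes listed for this, 7 had both genes at 1 RPKM or more in at least 3 tumors. Lrba, the host gene of Mab21l2 and a regulator of vesicle traffic in immune cells, was at 63.2, 29.6 and 27.3 RPKM in the cheek tumors, and its highest value there was in the tumor with the most Mab21l2. The vestibular and trigeminal nerve tumors, at 37.0 and 31.1 RPKM, were below cheek tumor 1 and above cheek tumors 2 and 3. The meninges tumors held 19.8, 10.9 and 25.4 RPKM and the retro-orbital tumors 8.98, 5.51, 17.0 and 14.6 RPKM. Because the cheek tumors form a cluster of their own in Mab21l2, the correlation was taken over the other 9 tumors. There Pearson's r was 0.86 (exact permutation p = 0.00327, adjusted p over the 7 pairs = 0.0229) and Spearman's rho 0.87 (exact permutation p = 0.00451, adjusted p = 0.0316). The relation rests in part on the vestibular and trigeminal nerve tumors, the 2 farthest from the median of Mab21l2: over the remaining 7, r was 0.71 (exact permutation p = 0.0700, adjusted p = 0.294). The library preparation kept strand, but whether the counting used it is not stated. Without strand, reads of Mab21l2 and reads of unspliced Lrba RNA from the other strand cannot be told apart.

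Dclk2, the gene that follows Lrba on the same chromosome, was also highest in the cheek. It was at 15.8, 5.84 and 5.50 RPKM in the cheek tumors and between 0.543 and 4.27 RPKM in the other 9. Over those 9 tumors its r with Mab21l2 was 0.70. It was picked from 14 expressed neighbors within 1 Mb after its values were seen, and its r is a description. The 14 correlations with Mab21l2 ran from -0.76 for Kirrel to 0.86 for Lrba, and 6 of the 14 were below 0. Glt28d2 and Fam160a1, named after their values were seen, each had an r of 0.83, close to that of Lrba. Neither was raised in the cheek. Glt28d2 had a mean of 1.71 RPKM there and 2.66 RPKM in the other tumors, and Fam160a1 5.96 and 7.74 RPKM. Nbea, the host of Mab21l1, was at 4.33 to 4.80 RPKM in the cheek tumors and at 14.2 RPKM in the trigeminal nerve tumor. Over 12 tumors its r with Mab21l1 was 0.54 (permutation p = 0.0694, adjusted p = 0.121) and rho 0.36 (adjusted p = 0.347). The same limit of strand holds for Mab21l1 and unspliced Nbea RNA.

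The 2 Mab21l genes had an r of 0.18 over the 12 tumors (permutation p = 0.571, adjusted p = 0.800) and a rho of 0.48 (adjusted p = 0.213), with the cheek tumors as a cluster of their own. Over the 9 tumors outside the cheek, r was 0.69 (exact permutation p = 0.0412, adjusted p = 0.0909) and rho 0.75 (adjusted p = 0.0892), which did not pass after adjustment. Without the 2 of these farthest from the median of Mab21l1, r was 0.39 (exact permutation p = 0.362, adjusted p = 0.455).

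Crnde, a noncoding RNA gene next to Irx5 on the opposite strand at chr8:92326033-92356120, was low throughout, from 0.562 to 2.49 RPKM. Over the 12 tumors its r with Irx5 was 0.76 (permutation p = 0.00453, adjusted p = 0.0159) and rho 0.86 (permutation p = 0.00061, adjusted p = 0.00213). Without the 2 tumors farthest from the median of Irx5, r was 0.79. Without the 3 cheek tumors r was 0.71, with an adjusted p of 0.0909, and on the untransformed RPKM scale 0.58, with an adjusted p of 0.122. Fto, the gene whose introns hold distant enhancers of Irx3, varied only from 11.8 to 23.7 RPKM, and its r with Irx3 was 0.01 (adjusted p = 0.967). Irx3 and Irx5 had an r of 0.59 (permutation p = 0.0445, adjusted p = 0.104) and Irx2 and Irx5, from the 2 clusters, an r of 0.09 (adjusted p = 0.902).

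**Figure D4:**
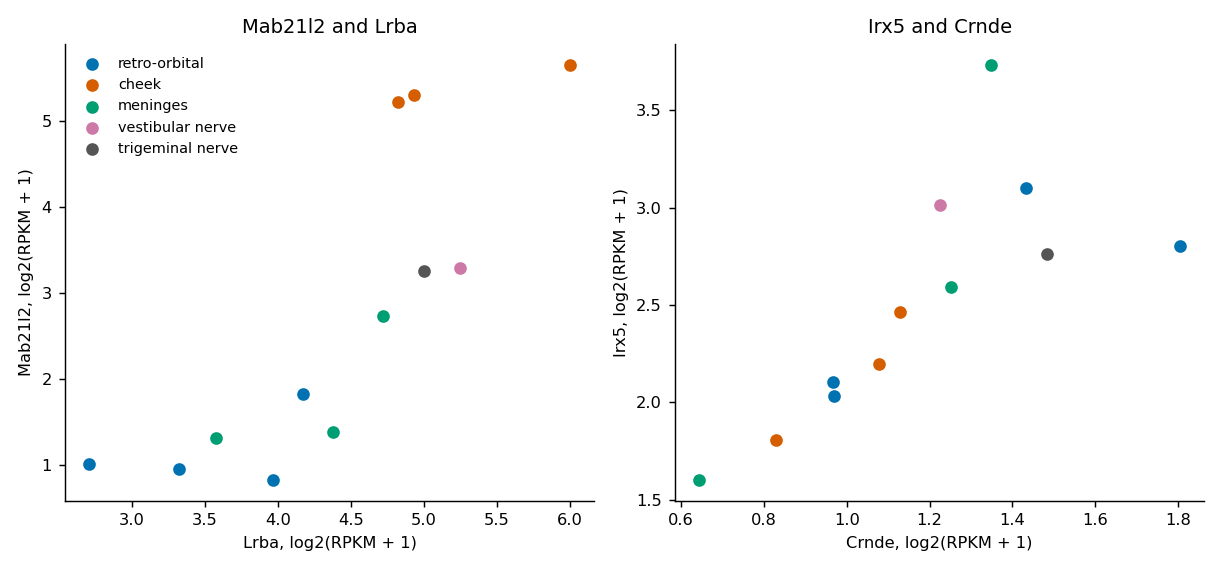
Levels of Mab21l2 against its host gene Lrba (left) and of Irx5 against its neighbor Crnde (right), each point 1 of 12 tumors, both axes log2(RPKM + 1), colored by location. Without the cheek tumors, r was 0.86 on the left and 0.71 on the right. The 3 cheek tumors form a group at the top of the left panel.

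The regional genes around the members gave each tumor its own combination. Of the 10 genes of frontonasal and first arch mesenchyme, 8 reached 1 RPKM in at least 3 tumors. Alx1, required for the frontonasal skeleton, exceeded 5 RPKM in 11 tumors and reached 222 RPKM in the vestibular nerve tumor. Hand2, which gives the arches their ventral identity, was at 80.5, 85.1 and 40.3 RPKM in the meninges tumors and at 69.0 RPKM in retro-orbital tumor 4. It was at most 0.631 RPKM in the cheek tumors. Lhx8, a factor of maxillary and mandibular mesenchyme, was at 91.8 and 91.1 RPKM in cheek tumors 2 and 3 and at 0.607 RPKM in cheek tumor 1. The cheek tumors thus shared a high Mab21l2 but not Lhx8. Cheek tumors 2 and 3 also held the highest En1, an engrailed factor of the midbrain and hindbrain, at 11.4 and 10.7 RPKM.

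Of the 8 midbrain-hindbrain boundary genes, En1 alone reached 1 RPKM in at least 3 tumors and 5 stayed under it in all 12. Of forebrain and midbrain genes, Otx1 was highest in cheek tumor 1, at 12.8 RPKM, and Emx2 in meninges tumor 2, at 14.4 RPKM. Of hindbrain genes, Egr2 and Meis1 were above 1 RPKM in all 12 tumors. Hoxb2, the Hox gene of hindbrain and second arch, reached 17.1 RPKM in meninges tumor 1, the tumor in which Gbx2 and Pitx1 were also highest, Pitx1 at 46.8 RPKM. The fits above tested 1 boundary gene, En1, and 7 frontonasal and first arch genes in each comparison. Of these, 0 were called. Over all genes, 0 of 14245 were called against the retro-orbital tumors and 2 of 14676 in the other comparison. Against the retro-orbital tumors the 7 frontonasal and first arch genes tested had a median difference of 1.46 on the log2 scale, beside 0.13 over all genes. The values went both ways, as 3 of the 7 lay below 0, with Alx1 at -1.05 and Lhx8 at -1.29 and the third being Lhx6, and the other 4 were between 1.46 and 3.69.

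**Figure D5:**
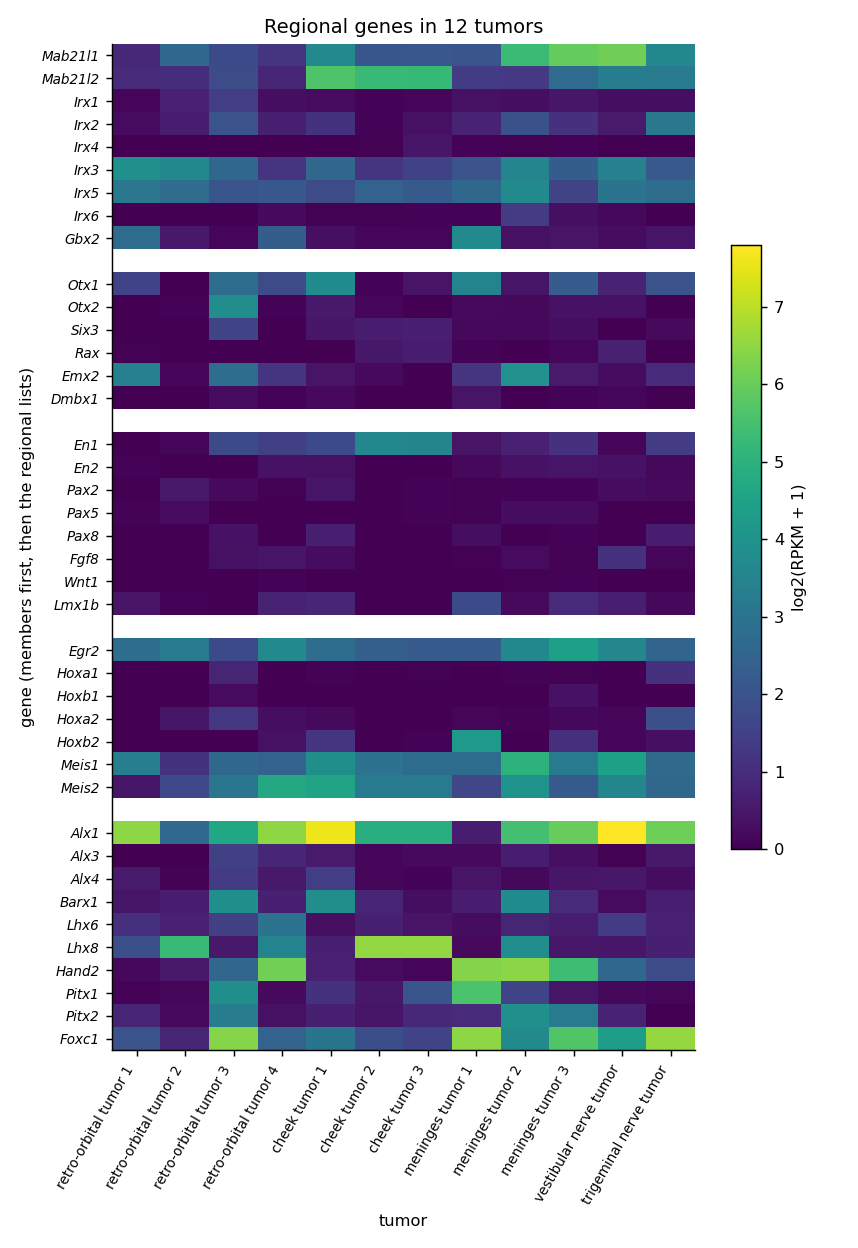
Heat map of log2(RPKM + 1) for the 9 members (top block) and for genes of forebrain and midbrain, midbrain-hindbrain boundary, hindbrain, and frontonasal and first arch mesenchyme (lower blocks) in the 12 tumors, ordered by location. Brighter cells are higher. Mab21l2 is bright in all 3 cheek tumors, Hand2 in all 3 meninges tumors, and Otx2 in retro-orbital tumor 3 alone.

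The genes most like each member over the 12 tumors were ranked by Pearson's r of log2(RPKM + 1). Candidates were all genes at 1 RPKM or more in at least 3 tumors. The ranking is a description over tumors that differ in location and library depth. Mab21l2 was closest to Col3a1, a fibrillar collagen (r = 0.96), to Scyl3 (r = 0.92) and to Irs4, an insulin receptor substrate (r = 0.91). The 12 tumors include the cheek tumors, on which Mab21l2 was chosen, so a gene high in the cheek ranks near the top here. These r values therefore show no relation beyond that pattern, and ranking by Spearman's rho kept 0 of the 3 genes. Irs4 was at 8.05, 20.1 and 20.7 RPKM in the cheek tumors and at most at 2.13 RPKM elsewhere. Col3a1 was at 1530.4 to 2207 RPKM in the cheek tumors and at 291 to 1061 RPKM in the others. Mab21l1 was closest to Veph1 (r = 0.91), Edrf1 (r = 0.86) and Wnt16, a secreted Wnt ligand (r = 0.85). Wnt16 was at 89.7 RPKM in meninges tumor 3 and at 47.8 RPKM in the vestibular nerve tumor, the 2 tumors with the most Mab21l1, and at most at 3.18 RPKM elsewhere.

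Gbx2 was closest to Casq2, a calcium store protein of cardiac muscle (r = 0.93), Uaca (r = 0.89) and Asxl2, a Polycomb-associated factor (r = 0.87). Uaca was at 102, 65.7 and 71.2 RPKM in the 3 tumors with Gbx2 above 1 RPKM and at 11.0 to 36.4 RPKM in the other 9. Irx3 was closest to Pebp1 (r = 0.90), Ndfip1 (r = 0.89) and Il7 (r = 0.87). Irx2 was closest to Muc15 (r = 0.92), the activin receptor gene Acvr2a (r = 0.91) and Snora28 (r = 0.90). Acvr2a stood at 12.2 RPKM both in the trigeminal nerve tumor and in retro-orbital tumor 3, the 2 tumors with the most Irx2, and at 4.45 to 6.58 RPKM elsewhere. Irx5 had weaker matches, C330013E15Rik (r = 0.77), C1d (r = 0.77) and its neighbor Crnde (r = 0.76).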

How the data were processed

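The 12 tumors were sequenced as ribosomal-RNA-depleted, strand-kept libraries. Per the study's methods and the submitters' processing notes (bcl2fastq 2.17, STAR, HTSeq, edgeR and limma named), the authors aligned reads to mm10, counted uniquely mapped fragments on RefSeq genes and deposited 1 RPKM value per gene and tumor. The transcript lengths and the strand setting of the counting are not given in the sources used here. Of the rows, 27 carry a date for a symbol. These were kept in the fits and never named.

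Groups are the labels' locations. One fragment of a gene adds a fixed RPKM in a tumor, which gave the fragment totals. The fragment numbers given for Irx1, Irx4, Irx6 and Gbx2 assume the shortest length at which all 12 values are whole to within 0.02 of a fragment, so they are lower bounds. Comparisons used limma 3.58.1 in R 4.3.3 with a trended, robust prior on log2(RPKM + 1), which understates changes of low genes, after a minimum of 1 RPKM in at least 3 fitted tumors. Exact permutation tests and correlation permutations (100000 resamples, exact under 10 tumors) used Python 3.11.15. In simulated data with 100 well expressed genes (mean log2 value above 5) changed by 2 and 100 by 4 on the log2 scale, the fit of meninges against retro-orbital tumors (13919 genes) found 67% and 91%, and that against all cranial nerve tumors other than cheek (14412 genes) 76% and 96%. Every member tested had a group mean of 4.44 or less on the log2(RPKM + 1) scale, so these shares do not apply to the members.

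The members, gene lists and tests were chosen with earlier results of these data known. The text names the members, the genes of the regional, neighbor and marker lists, and the 3 genes most like each member, and a few others said to be chosen after their values were seen. Sequences and positions are from GENCODE M21 on GRCm38. The cheek tumors were compared with no other location in a test, since Mab21l2 was chosen on them. In the alternative with all 12 tumors in the fit they entered the estimate of the spread. A few genes of the lists are not reported here.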

Additional observations from a re-analysis of the deposited data

Results flagged for a closer look

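Among the 9 members and 4 neighboring genes, 12 had unequal values in the 4 retro-orbital tumors and were screened for 1 tumor far from the other three on the log2(RPKM + 1) scale. Irx6 in retro-orbital tumor 4 stood out: its gap to the next tumor was 0.948 of the whole range, above Dixon's 95% limit for 4 samples. The value was 0.153 RPKM from 15 fragments, and the others had 0, 0 and 1 fragment. With normally distributed values, chance alone gives such a result in about 1 of 20 groups. That rate need not hold for counts this close to 0, and 12 genes were screened, so nothing is concluded from the flag.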

How the results depend on the processing

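The number of members called by limma stayed at 0 in both comparisons under every alternative fit. These were another pseudocount, no minimum, 5 RPKM as the minimum, quantile normalization, all 12 tumors in the fit, a constant prior, and each tumor left out. Adjusted p-values were 0.443 or more in the limma fits that left out a tumor. By the exact permutation test, which was not adjusted, the 6 members tested had p-values of 0.0571 or more. Irx4 and Irx6, below the minimum, had exact permutation p-values of 0.0286 and 0.0571 against the retro-orbital tumors. In the other comparison theirs were 0.0119 and 0.0357. Fewer than 6 members were tested in some limma fits: a minimum of 5 RPKM left Mab21l1, Irx3 and Irx5 against the retro-orbital tumors, and these and Mab21l2 in the other comparison. Irx2 fell below the minimum against the retro-orbital tumors without meninges tumor 2 or 3 or retro-orbital tumor 3. Over all genes, meninges against retro-orbital called 3 genes (Hoxd10, Hoxd11 and Thbs4) with all 12 tumors in the fit and 0 under the others run. Quantile normalization moved the median difference of all genes from 0.13 to 0.02 there, with Mab21l1 at 2.73. Against all cranial nerve tumors other than cheek, 2 became 0 with a pseudocount of 0.1 and 0 with a minimum of 5 RPKM, and 0 to 2 when a tumor was left out: it was 0 without retro-orbital tumor 1, 2 or 4, meninges tumor 1 or 3 or either nerve tumor. Without meninges tumor 2 it was 1, a different gene, Mrap, and with no minimum 3, Mir5622 beside Hoxd10 and Hoxd11. Mab21l1 kept its direction throughout, at 2.08 to 4.02 against the retro-orbital tumors and 0.99 to 2.93 in the other comparison with a tumor left out.

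Members whose difference lay near 0 changed sign. Against the retro-orbital tumors, Irx5 was -0.0847 under quantile normalization and -0.41 to 0.65 with a tumor left out, Gbx2 was -0.00643 with a pseudocount of 0.1, -0.16 under quantile normalization and -0.37 to 0.64 with a tumor left out, and Irx3 was -0.78 to 0.12. Without meninges tumor 1, retro-orbital tumor 1 or retro-orbital tumor 4, Gbx2 fell below the minimum in both comparisons. In the other comparison Mab21l2 was 0.0416 with a pseudocount of 0.1 and -0.51 to 0.24 with a tumor left out, Irx2 was -0.21 under quantile normalization and -0.29 to 0.44, Irx3 was -0.68 to 0.0739, and Irx5 was -0.0341 with a pseudocount of 0.1, -0.21 under quantile normalization and -0.54 to 0.53. The cause was not tested. No paired analysis was possible because the labels give the tumors no replicate numbers.

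Of the correlations, Irx3 with Irx5 rose to 0.67 on the RPKM scale (adjusted p = 0.0475) and Irx5 with Crnde lost its call at 0.58 on the RPKM scale, 0.71 without the cheek tumors and 0.69 without these and the 2 others farthest from the median. The last setting, chosen after seeing the data, also ended the call of Mab21l2 with Lrba, at 0.71, and gave -0.43 for Irx3 with Fto. Over the 12 tumors Mab21l1 with Mab21l2 went from 0.18 to -0.17 on the RPKM scale, and Irx3 with Fto was -0.0803 on the RPKM scale, -0.25 without the cheek tumors and -0.0606 without cheek tumor 3, also chosen after seeing the data. Ranking by Spearman's rho kept 0 of the 3 most-like genes for Mab21l1 and Mab21l2 and 1 of 3 for Irx2, Irx5 and Gbx2, and a pseudocount of 0.1 kept 0 of 3 for Irx2. Depth limits Irx4 and Irx6, which rest on under 20 fragments in all tumors but 1.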
